A study of Mus musculus with 10 samples.

Results

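Nuclear genes of the mitochondrial respiratory chain were described through the open-chromatin sites that lie at them or near them in mouse Th17 cells. A site belonged to the set when its nearest protein-coding gene body on GRCm38, within 50 kb, had a symbol of the Nduf, Sdh, Uqcr, Cox or Atp5 families, and sites on mitochondrial DNA were left out. This rule took 148 of the 39657 deposited sites, at 73 of the 105 genes with such a symbol. The other 32 genes, among them Sdha, Sdhc, Cox7c and Ndufa2, had no site assigned to them. A site that overlapped several gene bodies went to the gene with the nearest end. A gene without an assigned site can therefore still overlap one, as Atp5j does with a site given to Gabpa. The symbols did not use any measured value.

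ATAC-seq, in which a transposase cuts accessible DNA, was made from cells of PDHfl/fl mice, whose floxed pyruvate dehydrogenase (PDH) locus is removed where Cre is made. Naive CD4+ T cells of spleen and lymph nodes came from PDHfl/fl CD4 Cre+ mice (KO) or from PDHfl/fl mice without Cre (WT) and were cultured for 3 days with anti-CD3, anti-CD28, IL-6 (30 ng/mL), anti-IFNγ and TGFβ (2 ng/mL), the conditions for Th17 cells. All 4 groups carried the floxed alleles, and the acetate groups had 10 mM sodium acetate during differentiation: KO untreated (n = 3), WT untreated (n = 3), KO with acetate (n = 2) and WT with acetate (n = 2). Cre under the CD4 promoter acts during T cell development, before the Th17 culture, and in CD8 as well as CD4 lineages. The sample titles spell the line PHD-fl/fl, and the growth protocol's PDHfl/fl is used here. The labels give neither the floxed PDH gene nor the age or number of the mice. Libraries are named by the number in their column, and the column numbers of WT untreated 4 and KO acetate 3 are not those of the sample titles, so these columns are known by group only. Whether replicates are separate mice is not stated, and p-values measure only the spread between these libraries.

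The respiratory chain passes electrons from NADH through complex I, or from succinate through complex II, by way of complexes III and IV to oxygen, and the proton gradient built on the way drives the ATP synthase, complex V. Most subunits are encoded in the nucleus, their genes lie scattered over the chromosomes, and many are transcribed in most cell types from GC-rich promoters that bind factors such as NRF1, GABP (an ETS factor), YY1 and SP1. PDH makes the acetyl-CoA that feeds the tricarboxylic acid cycle, which supplies the NADH and succinate that complexes I and II oxidise.

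Most of the strongest sites of these genes lie at promoters, and 51 member sites, 1 each at 51 genes, overlapped a promoter window of 300 bases taken from RefSeq (GRCm38.p6, 250 bases before to 50 after the start). The windows of the strongest such site at a subunit gene of each complex are shown first. That of Ndufc1, the strongest one at a subunit gene that holds the YY1 motif, is added. Assembly factor genes were not considered for printing. They are Ndufv1 (chr19:4012706-4013005, minus strand), the subunit of complex I that binds NADH, Sdhb (chr4:140961021-140961320, plus strand), an iron-sulfur subunit of complex II, Uqcrc1 (chr9:108936398-108936697, plus strand), a core protein of complex III, Cox8a (chr19:7217567-7217866, minus strand), a small subunit of complex IV, Atp5b (chr10:128083057-128083356, plus strand), the catalytic beta subunit of ATP synthase, and Ndufc1 (chr3:51408906-51409205, minus strand), an accessory subunit of complex I. Each is written 5′ to 3′ on its gene's strand, and capitals mark a match on either strand to any of 7 motifs: NRF1 (GCGC and TGCGC with A between them), a looser NRF1 form that contains the first (any base between them), CCGGAAG (ETS, as bound by GABP), AAGATGGC (YY1), GGGCGG (SP), CCAAT and TGACGTCA (CRE).
Ndufv1: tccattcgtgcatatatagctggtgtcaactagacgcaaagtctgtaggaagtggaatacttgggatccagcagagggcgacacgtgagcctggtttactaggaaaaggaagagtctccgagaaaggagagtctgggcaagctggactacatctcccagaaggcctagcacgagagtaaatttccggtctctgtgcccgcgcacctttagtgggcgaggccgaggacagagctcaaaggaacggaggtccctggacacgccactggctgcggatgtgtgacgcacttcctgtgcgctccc
Sdhb: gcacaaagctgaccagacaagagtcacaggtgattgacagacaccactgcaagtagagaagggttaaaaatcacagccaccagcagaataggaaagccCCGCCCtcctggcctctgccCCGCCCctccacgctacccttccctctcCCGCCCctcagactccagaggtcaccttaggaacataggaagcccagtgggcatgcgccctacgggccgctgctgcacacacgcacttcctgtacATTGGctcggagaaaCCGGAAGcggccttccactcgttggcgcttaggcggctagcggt
Uqcrc1: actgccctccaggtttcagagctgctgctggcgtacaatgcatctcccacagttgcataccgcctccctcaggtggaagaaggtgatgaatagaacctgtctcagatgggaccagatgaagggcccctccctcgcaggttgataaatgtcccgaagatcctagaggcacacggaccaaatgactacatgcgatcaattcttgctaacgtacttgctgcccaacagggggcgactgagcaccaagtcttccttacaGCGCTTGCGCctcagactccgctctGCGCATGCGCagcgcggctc
Cox8a: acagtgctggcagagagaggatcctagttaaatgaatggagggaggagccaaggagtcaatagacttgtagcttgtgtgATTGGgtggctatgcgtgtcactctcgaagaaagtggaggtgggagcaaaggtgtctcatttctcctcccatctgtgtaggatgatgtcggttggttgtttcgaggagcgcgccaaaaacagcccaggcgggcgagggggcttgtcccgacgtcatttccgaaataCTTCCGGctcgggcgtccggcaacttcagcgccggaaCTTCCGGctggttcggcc
Atp5b: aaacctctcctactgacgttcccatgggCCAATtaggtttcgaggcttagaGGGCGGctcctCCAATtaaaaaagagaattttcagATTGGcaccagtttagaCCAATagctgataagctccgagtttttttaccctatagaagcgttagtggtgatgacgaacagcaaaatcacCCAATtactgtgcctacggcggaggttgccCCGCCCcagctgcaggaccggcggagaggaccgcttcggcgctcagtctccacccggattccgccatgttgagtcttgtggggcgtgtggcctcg
Ndufc1: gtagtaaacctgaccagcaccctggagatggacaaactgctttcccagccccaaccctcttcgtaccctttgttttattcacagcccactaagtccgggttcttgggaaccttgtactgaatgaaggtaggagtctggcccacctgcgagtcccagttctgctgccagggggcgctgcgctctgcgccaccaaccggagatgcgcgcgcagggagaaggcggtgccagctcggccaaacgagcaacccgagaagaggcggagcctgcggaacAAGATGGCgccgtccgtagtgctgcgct

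Uqcrc1 held 2 looser NRF1 matches, 1 of them exact, Cox8a held 2 ETS matches and a CCAAT box, Sdhb held 3 SP matches, an ETS match and a CCAAT box, and Atp5b held 5 CCAAT boxes and 2 SP matches. Ndufc1 held a YY1 match, and Ndufv1 held none of the 7. A match is a description of letters, not of binding.

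Across the family, 85 of the 105 genes had a window in the RefSeq table, and they were set beside 17492 protein-coding genes. The exact NRF1 motif was found in 8.24% of the respiratory chain genes and 1.47% of all genes. The looser form stood at 22.4% and 7.17%, the ETS motif at 28.2% and 12.9%, and the YY1 motif at 15.3% and 3.57%. SP matches (47.1% and 49.2%) and CCAAT boxes (42.4% and 42.3%) were about as frequent in both, and the CRE was found in 4.71% and 2.54%. The median GC content was 59.0% in the respiratory chain windows and 56.33% in all windows. Among the 51 sites on a window the median log2 difference between untreated KO and WT was -0.67 for the 13 with a looser NRF1 match and -0.71 for the 38 without, -0.69 for the 16 with an ETS match and -0.70 for the 35 without, and -0.76 for the 7 with a YY1 match and -0.69 for the 44 without. These splits were not tested.

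**Figure D1:**
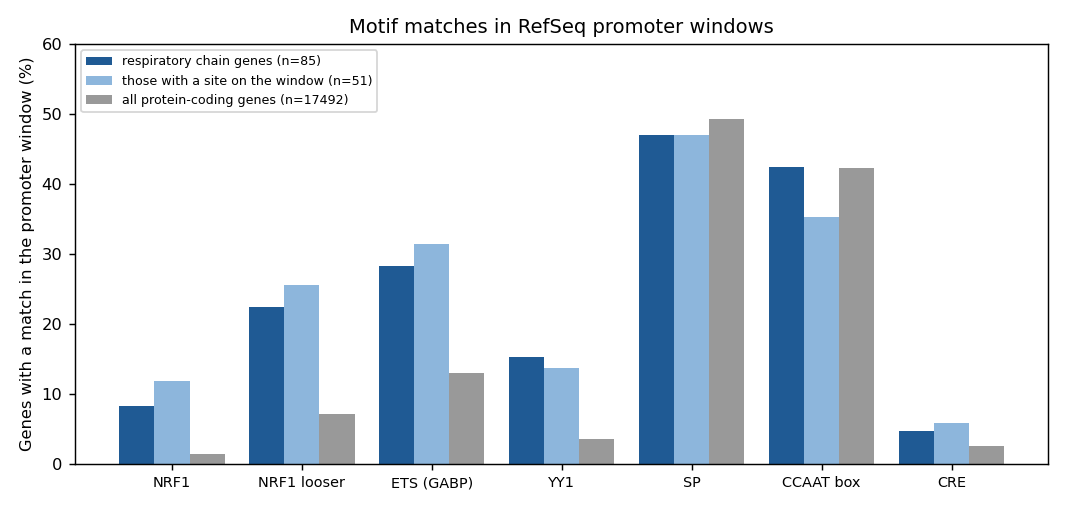
Share of genes (y axis, percent) whose RefSeq promoter window of 300 bases holds each motif (x axis), for 85 respiratory chain genes, the 51 of them with a site on the window, and 17492 protein-coding genes. The NRF1, ETS and YY1 bars are higher for respiratory chain genes, and the SP and CCAAT bars of all 85 stand near those of all genes.

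Complex I contributed 56 sites at 32 of 49 genes, complex II 6 sites at 2 of 4, complex III 17 sites at 6 of 8, complex IV 43 sites at 20 of 27, and complex V 26 sites at 13 of 17. Complexes were set by gene symbol alone, so every Nduf gene, including Ndufa4 and Ndufa4l2, was counted in complex I. Assembly factors, which build complexes I and IV without being part of them, made up 17 of the complex I sites and 18 of the complex IV sites. Sites within 1 kb of either end of the gene body (gene-end sites) numbered 73 of 148, or 49.3%, against 24.4% of all nuclear sites. A further 23 lay inside the gene and 52 outside it. Only 1 site was found at each of 46 genes, and the largest numbers were 12 at Cox10, 11 at Uqcrfs1 and 10 at Ndufaf6. Which gene a site acts on was not measured: 23 of the 148 also lay within 1 kb of another gene's end and 8 overlapped another gene, so the Sdhd promoter site is shared with Timm8b and the Ndufa1 site with Rnf113a1. The farthest member lay 42064 bp from Uqcrfs1 (mean signal 70.2, log2 difference between untreated KO and WT -0.63), and the nearest site beyond the 50 kb limit lay 72923 bp from the same gene (197.7 and 0.77).

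Values are the deposited signal, which is whole reads in a site scaled by 1 factor per library. The mean signal of the 51 sites on a promoter window over the 10 libraries ran from 73.3 to 933 with a median of 394, against a median of 109 for the 75 member sites away from gene ends. A few sites, such as those of Cox5a and Atp5g3, are in both sets. The 5 libraries whose column names begin ATAC1 are KO untreated 1, 2 and 3 and WT untreated 1 and 2; the other 5, WT untreated 4 and all acetate libraries, begin ATAC2. The shallowest library held 3500172 reads in sites and the deepest 13356560, which left medians of 76.5 and 302.5 reads at a respiratory chain site, and intervals from such counts would cover counting error only. By the same assignment to genes, all 5 Th17 marker genes and all 4 CD4+ T cell marker genes looked up had sites, and neither CD8 gene did. The B cell markers Ms4a1 and Cd79a, the myeloid markers Csf1r and Lyz2 and the natural killer marker Ncr1 had no site, while Pax5, Ebf1, Spi1, Itgam, Klrb1c and Eomes had some. ATAC-seq signal at a site cannot tell fewer cells with the site open from less opening per cell, and no value here checks the deletion of PDH.

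The share of all nuclear signal that fell in respiratory chain sites was nearly constant, between 0.416% and 0.463% over the 10 libraries. It was 0.448% to 0.453% in KO untreated, 0.436% to 0.463% in WT untreated, 0.421% and 0.448% in KO with acetate, and 0.457% and 0.416% in WT with acetate, so the KO untreated libraries lay inside the range of the WT untreated ones. At gene ends the share followed the column prefix: respiratory chain sites held 0.803% to 0.816% of all gene-end signal in the 5 ATAC1 libraries and 0.738% to 0.777% in the 5 ATAC2 libraries, with no overlap. WT untreated 4, an untreated library with the ATAC2 prefix, stood at 0.738%, and the WT untreated ATAC1 libraries at 0.803% and 0.809%. Mitochondrial DNA sites held 1.18% to 2.01% of the signal in KO untreated and 0.201% to 0.658% in the other 7 libraries.

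**Figure D2:**
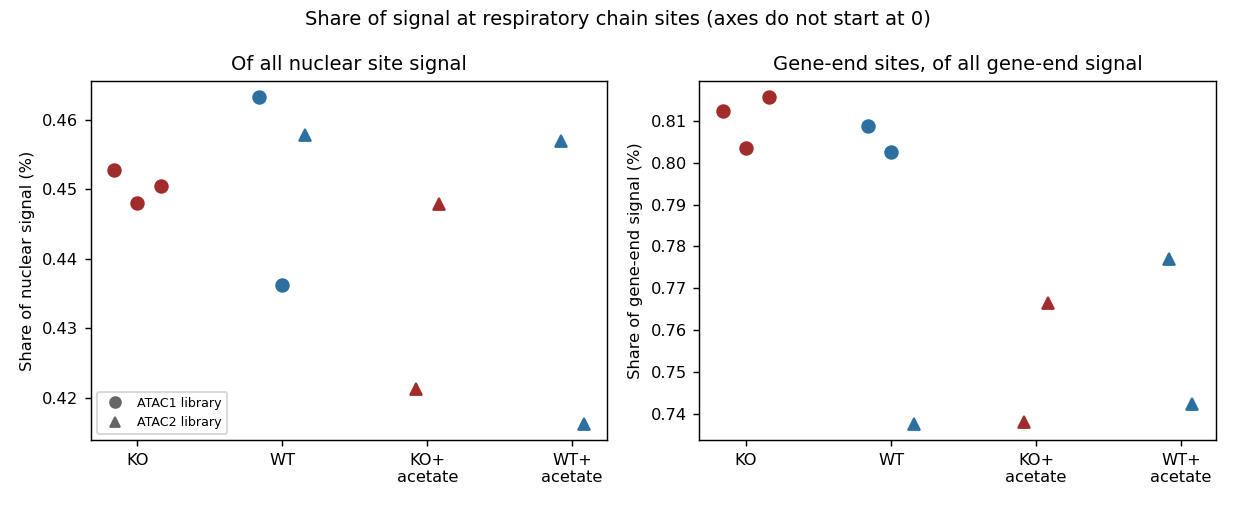
Share of signal (y axes, percent, not starting at 0) at respiratory chain sites in each of the 10 libraries by group (x axis), of all nuclear signal on the left and of gene-end signal on the right. Circles are ATAC1 and triangles ATAC2 libraries; on the right every circle lies above every triangle.

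The first comparison asked how the loss of PDH went with accessibility at these genes in untreated cells. On the deposited scale 146 of 148 sites were lower in KO, 1 was higher and 1 did not pass the test (limma, Benjamini-Hochberg adjusted p below 0.05 over all sites). The background was nearly the same, with 89.6% of all 39657 sites called lower and 9.07% higher, and the table itself is numbered as differential sites, so these counts are not independent evidence. The median log2 difference was -0.81 for the 148 sites and -0.84 for all sites, which is a fold of 0.571 for the respiratory chain. KO and WT libraries did not overlap at 133 sites that were lower and 1 that was higher, against 80.9% and 8.61% of all sites. The whole-table shift rests on the deposited factors: cyclic loess, which centres the libraries on each other, set the median of all sites to 0.00 and of the respiratory chain sites to 0.02, and left 1 higher and 2 lower calls, in a background of 9.35% and 2.41%. With equal total signal there were 2 higher and 4 lower calls (background 9.42% and 5%), and median-of-ratios factors gave 2 and 3 (9.63% and 3.34% of all sites).

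The summed signal of the 25 Th17 marker sites was 3584 to 4417 in KO and 5736 to 7684 in WT untreated, and 4943 to 6381 in KO and 6704 to 7015 in WT with acetate. The 21 CD4+ T cell marker sites summed to 5719 to 7774 in KO and 4710 to 6055 in WT untreated, which overlap, and to 8892 to 11092 in KO and 4888 to 4932 in WT with acetate. The 15 B cell sites summed to 964 to 1370 in KO and 1478 to 1821 in WT untreated. The 5 myeloid sites gave 887 to 1179 against 1553 to 1853, and the 11 natural killer sites 1349 to 1607 against 2089.7 to 3024. Each of these was lower in every untreated KO library. All sums are on the deposited scale, where 80.9% of all sites were lower in untreated KO without overlap, with a median fold of 0.56. Lower sums there do not by themselves show a change particular to these markers. The CD4+ T cell sums did not share the general fall. That list includes Cd4 itself, and only KO cells carry Cre under the CD4 promoter. Cd4 sites were not summed apart from the other markers of the list, and whether the transgene adds reads at them was not tested. Marker sums as a share of total signal were not computed, and the part of any of these in the results was not tested.

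The complexes lay close together. The median log2 difference was -0.79 for complex I, -0.97 for complex II, -0.79 for complex III, -0.80 for complex IV and -0.84 for complex V. At gene ends the median of the 73 respiratory chain sites was -0.75, beside -0.80 for all 9692 gene-end sites, and that of the 16 complex IV gene-end sites was -0.63. Assembly factor sites (35) had a median of -0.82 and subunit sites (113) one of -0.80. The 75 sites away from gene ends had a wider range, from -2.21 to 1.34, than the 73 at gene ends, from -1.46 to -0.43.

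**Figure D3:**
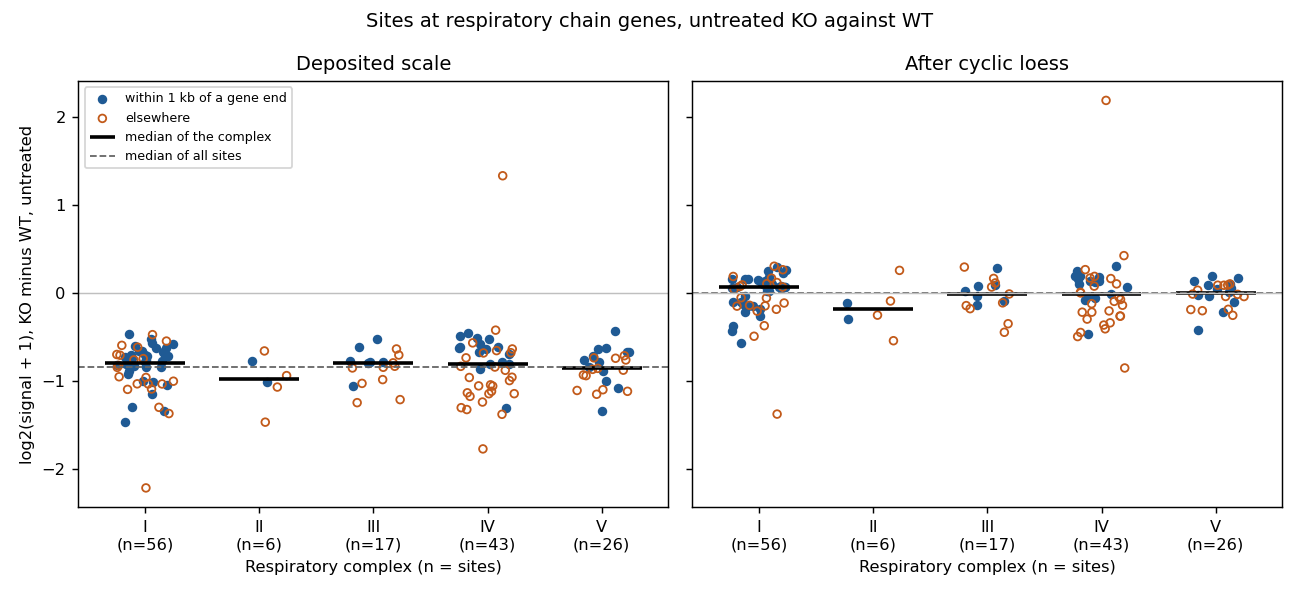
log2 difference between KO and WT untreated (y axis) of each of the 148 sites by complex (x axis), on the deposited scale and after cyclic loess. Filled points lie within 1 kb of a gene end, open points elsewhere, bars are complex medians and the dashed line is the median of all sites, -0.84 on the left and 0.00 on the right; the complex II bar lies lowest, with 6 sites.

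The 3 promoter sites with the highest mean signal, at Atp5b, Cox8a and Ndufv1, were lower in KO by less than the median site. The Atp5b site (chr10:128083074-128083274), at the window printed above, read 751, 799.5 and 877 in KO and 1149, 1039 and 1087 in WT. All KO libraries lay below all WT libraries, and the log2 difference was -0.43 (SE 0.17, adjusted p = 0.0141). The Cox8a site (chr19:7217660-7217860) read 680.0, 851 and 859.5 in KO against 1231, 1013 and 1099 in WT, a log2 difference of -0.49 (SE 0.17, adjusted p = 0.0066). Ndufv1 (chr19:4012654-4012854) gave 664, 699 and 786 against 1109, 903 and 1069, or -0.52 (SE 0.18, adjusted p = 0.00475). The folds at these 3 sites, 0.741, 0.714 and 0.699, were nearer to 1 than the fold of 0.571 at the median site. After cyclic loess their differences turned to the other sign, at 0.19, 0.14 and 0.13, and passed no test.

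Uqcrc1 (chr9:108936488-108936688), whose window holds the NRF1 matches, read 442, 479 and 467 in KO and 860.3, 643 and 637 in WT, a log2 difference of -0.61 (SE 0.19, adjusted p = 0.0022). Sdhb (chr4:140961158-140961358) read 503, 581 and 532 against 907, 769 and 1110.1, or -0.77 (SE 0.18, adjusted p = 0.000112), and was the strongest complex II site. Both groups were separate at both sites. Cox4i1, the regulatory subunit IV of cytochrome c oxidase, has a gene-end site (chr8:120668162-120668362) that also lies within 1 kb of Emc8, and it read 209, 219 and 219.9 in KO against 375, 284 and 561 in WT (log2 -0.85, SE 0.21, adjusted p = 0.000189). The largest subunit of complex I, Ndufs1, had no gene-end site and only a weak one 12411 bp away (chr1:63130981-63131181), at 29.6, 39.2 and 48.5 in KO and 129, 118 and 57.5 in WT, and this site was named after its values were seen.

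Grouping the 51 promoter sites by their level in the acetate libraries, which this contrast does not use, gave medians of -0.78, -0.69 and -0.66 from the lowest to the highest 17. All gene-end sites showed the same order, at -0.90, -0.81 and -0.71. After cyclic loess the promoter medians were 0.08, 0.11 and 0.06, with no such order.

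The largest falls were at weaker sites, some of them within 1 kb of a gene end and the others farther away. A site 17624 bp outside Ndufaf6 (chr4:11093861-11094061), an assembly factor of complex I, read 7.13, 7.47 and 5.91 in KO and 41.2, 41.2 and 25.4 in WT. Behind the KO values stood 13, 8 and 5 reads and behind the WT values 33, 41 and 23. The log2 difference was -2.21 (SE 0.36, adjusted p = 1.73e-07), and it was 1 of the 2 falls that cyclic loess also called, at -1.37. The other 9 sites assigned to Ndufaf6 had log2 differences from -0.47 to -1.36, and the gene-end site at chr4:11076153-11076353 stood at -0.88, close to the median of all sites.

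Cox7a2l, which joins complexes III and IV in supercomplexes, had a cluster of distal sites. The one 14655 bp away (chr17:83528988-83529188) read 11.5, 21.5 and 31.9 in KO against 97.4, 75.3 and 47.5 in WT, a log2 difference of -1.77 (SE 0.29, adjusted p = 2.86e-07). A neighbour 12951 bp away (chr17:83527284-83527484), named after its values were seen because cyclic loess also called it (-0.49), read 108, 123 and 153 against 345, 250.2 and 371 (log2 -1.32, SE 0.21). The Cox7a2l promoter site itself differed by -0.62. KO and WT were separate at all 3.

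Sdhd, a membrane anchor of complex II, had its largest fall 2497 bp outside the gene (chr9:50593643-50593843), with 41.1, 21.5 and 41.4 in KO and 81.2, 71.3 and 140.4 in WT (log2 -1.46, SE 0.26, adjusted p = 2.1e-06). The WT value of 140.4 is that of the ATAC2 library. A gene-end site of Ndufv3, a flavoprotein accessory subunit (chr17:31520969-31521169), showed the same order, with 23.0, 15.9 and 23.6 against 43.7, 46.2 and 97.3 (log2 -1.46, SE 0.31). It also lies within 1 kb of Wdr4, while the Ndufv3 promoter site differed by -0.60. At a site 819 bp from Ndufb7, an accessory subunit of complex I (chr8:83565739-83565939), KO libraries read 43.9, 43.9 and 44.9 and WT libraries 165, 84.4 and 105 (log2 -1.34, SE 0.25).

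Atp5a1, the alpha subunit of ATP synthase, had a site at chr18:77774225-77774425 with 32.4, 46.7 and 43.7 in KO against 125, 74.3 and 121 in WT (log2 -1.34, SE 0.25), and Haus1 ends within 1 kb of it. Cox7b, a small subunit of complex IV, read 15.9, 13.1 and 22.5 against 41.2, 33.2 and 57.5 at chrX:106015808-106016008 (log2 -1.31, SE 0.36). A site 37425 bp from Cox10, the enzyme that begins heme A synthesis for complex IV (chr11:64116897-64117097), read 13.7, 20.5 and 15.4 against 26.2, 35.2 and 77.4 (log2 -1.30, SE 0.31). Here too the ATAC2 library gave the highest WT value. None of the falls at Sdhd, Ndufv3, Ndufb7, Atp5a1, Cox7b and Cox10 was called after cyclic loess.

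The single rise lay near Cox6c, a small subunit of complex IV, 6687 bp outside the gene (chr15:35944933-35945133). It read 51.0, 43.9 and 65.0 in KO and 16.2, 23.1 and 22.1 in WT, a fold of 2.52 (log2 1.34, SE 0.35, adjusted p = 0.000342), with no overlap. With acetate the values were 37.5 and 27.2 in KO and 15.4 and 27.4 in WT. Cyclic loess gave 2.19. The only site not called was inside Cox10 (chr11:64048521-64048721), with 169, 177 and 201 in KO against 293, 303 and 163 in WT (log2 -0.42, SE 0.22, adjusted p = 0.0582); the WT library at 163 is the ATAC2 one, and the site was named after its values were seen.

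Sites were also present at isoforms known from other tissues. Cox7a1, the heart and muscle form of subunit VIIa, had a strong promoter site (chr7:30184024-30184224) at 444, 459.6 and 583 in KO and 798, 653 and 588 in WT (log2 -0.45, SE 0.19), above the gene-end site of the widely expressed Cox4i1, a site of the same width, in each of the 10 libraries. Cox6b2, the testis form of subunit VIb (chr7:4753003-4753203, also within 1 kb of Fam71e2), read 166, 189 and 231 against 301, 262 and 268 (log2 -0.51, SE 0.21). A site 8271 bp from Cox8b, another heart and muscle form, differed by -0.84 (SE 0.20), and Ndufa4l2, known as a hypoxia-induced gene, had 1 gene-end and 1 internal site at -0.82 (SE 0.22) and -0.54 (SE 0.19). All were called lower on the deposited scale, and none after cyclic loess, where both Ndufa4l2 sites, Cox6b2 and Cox7a1 changed sign. Cox4i2, Cox6a2, Cox7b2 and Cox8c had no site assigned to them.

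With acetate in both genotypes, no respiratory chain site differed between KO and WT by limma, in a background of 0.0227% of sites called higher and 0 called lower. At an unadjusted limma p below 0.05 there were 4 of 148 sites, 1 higher and 3 lower, beside 194 higher and 720 lower of all 39657 sites. The median log2 difference was -0.16 for the family and -0.15 for all sites. KO lay wholly below WT at 46 sites and wholly above it at 4, against 30.3% and 4.63% of all sites. With 2 libraries a group, a p that misses the threshold does not show that the genotypes were alike. The Ndufaf6 distal site, lowest in untreated KO, read 54.6 and 52.8 in KO and 49.2 and 61.1 in WT, and Atp5b read 890.1 and 816 against 1043 and 876.

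**Figure D4:**
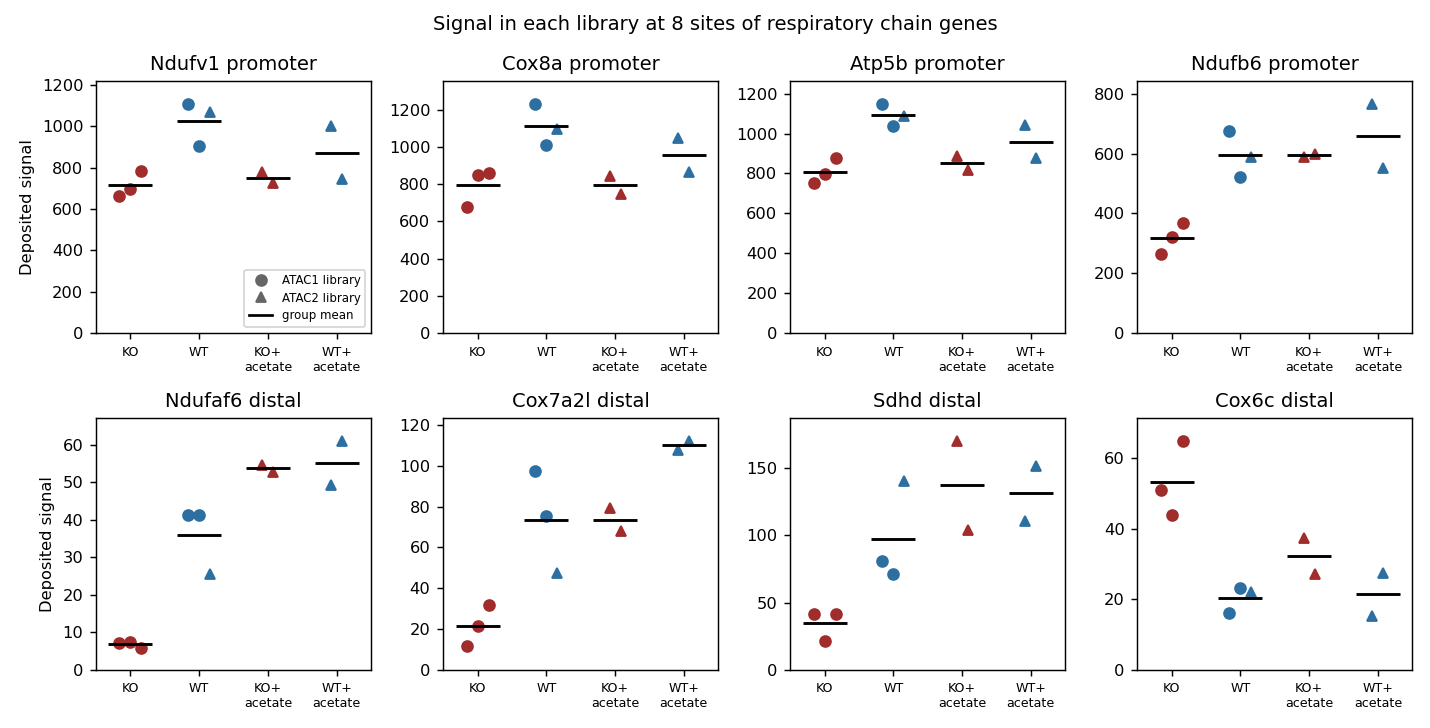
Deposited signal (y axes, from 0) in each library of the 4 groups (x axes) at 4 promoter sites (top) and 4 distal sites (bottom); circles are ATAC1 and triangles ATAC2 libraries, and bars are group means. The Ndufv1, Cox8a and Atp5b promoters stayed near their untreated level in KO with acetate, whereas the Ndufb6 promoter and the Ndufaf6, Cox7a2l and Sdhd distal sites were higher; at the Cox6c distal site KO untreated stands above the other groups.

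In KO cells, acetate went with higher signal at 66 of 148 sites and lower signal at none, on the deposited scale. The background was 54.6% of sites called higher and 5.94% lower, and the 66 sites are 44.6% of the family. Groups did not overlap at 108 sites that were higher and 2 that were lower, against 69.8% and 8.15% of all sites. The median log2 difference was 0.51 beside 0.61 for all sites, and at gene ends 30 of 73 sites rose (41.1%, median 0.48) beside 59.4% of all gene-end sites (median 0.60); none was called lower, beside 0.846%. All KO acetate libraries are ATAC2 and all KO untreated libraries ATAC1, so acetate and prefix cannot be told apart in KO; with prefix as a term, which then rests on WT untreated 4 alone against WT untreated 1 and 2, 27 sites were called higher. Without KO acetate 1 the number was 29 and without KO untreated 1 it was 42. Calls over all sites were not counted in these fits, so the lower numbers are not a result about these genes.

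By complex, on the deposited scale, 5 of 6 sites of complex II rose and 17 of 26 of complex V, against 21 of 56 in complex I, 7 of 17 in complex III and 16 of 43 in complex IV. Subunit sites rose at 55 of 113 and assembly factor sites at 11 of 35. Of all sites 54.6% rose. With median-of-ratios factors complexes I to V had 2, 1, 0, 3 and 3 higher calls and 4, 0, 0, 6 and 2 lower calls. Of all sites, 13.3% were called higher and 15.9% lower under those factors. Whether the complexes differ was not tested.

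**Figure D5:**
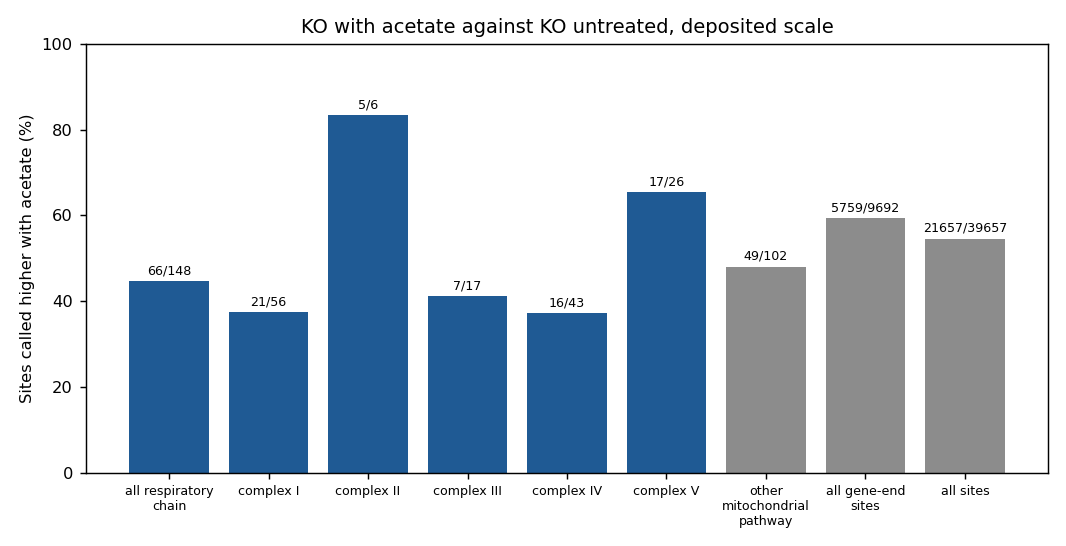
Percent of sites called higher in KO with acetate than in KO untreated (y axis) for the respiratory chain, each complex, other mitochondrial pathway genes, all gene-end sites and all sites (x axis), with the counts over the bars. On the deposited scale shown, complexes II and V stand above the 54.6% of all sites, and complexes I, III and IV below it.

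Promoters within a complex had different values. At Cox8a KO cells read 841 and 747 with acetate, inside the untreated range of 680.0 to 859.5, for a log2 difference of 0.00 (SE 0.20, adjusted p = 0.998). Atp5b (0.08, SE 0.19) and Ndufv1 (0.07, SE 0.20) overlapped their untreated range in the same way, and Uqcrc1 read 537 and 540.0 (0.22, SE 0.21). In contrast Ndufb6, an accessory subunit of complex I, rose at its promoter (chr4:40279423-40279623) from 265, 320.4 and 367 to 588 and 600.3 (log2 0.92, SE 0.22, adjusted p = 0.000245). Atp5e, the epsilon subunit of ATP synthase (chr2:174464048-174464248), rose from 316, 340.0 and 343 to 604 and 653 (log2 0.91, SE 0.22, adjusted p = 0.000255). Sdhb read 876 and 796 (0.63, SE 0.20, adjusted p = 0.00531), and the Cox4i1 gene-end site 390.5 and 412 (0.89, SE 0.23, adjusted p = 0.00079). With prefix as a term Ndufb6 was still called (0.93), and Atp5e (0.76), Sdhb (0.22) and Cox4i1 (0.11) were not.

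After cyclic loess 8 sites were called higher and 14 lower in KO with acetate, in a background of 11.5% and 16.7%. Equal total signal gave 13 and 9 (background 16.3% and 13.2%) and median-of-ratios factors 9 and 12 (13.3% and 15.9%). Ndufb6 (0.41) and Atp5e (0.40) were among those higher, and Cox8a (-0.38), Atp5b (-0.30) and Ndufv1 (-0.33) among those lower. Ndufb6 and Atp5e were chosen for naming after their values were seen, as was Ndufa1, an X-linked accessory subunit of complex I, which had the largest rise of any promoter site on the deposited scale, from 53.2, 68.2 and 73.3 to 147 and 161 (log2 1.25, SE 0.26), and was not called after cyclic loess or with prefix as a term (0.53).

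The largest rises in KO were at distal sites named above for their falls. Both differences use the same KO untreated libraries, so low values there enlarge the fall and the rise alike. The Ndufaf6 distal site went from 7.13, 7.47 and 5.91 to 54.6 and 52.8, a log2 difference of 2.81 (SE 0.40, adjusted p = 2.97e-09). The distal Cox10 site went from 13.7, 20.5 and 15.4 to 82.7 and 63.4 (2.08, SE 0.35, adjusted p = 2.99e-07), and the distal Sdhd site from 41.1, 21.5 and 41.4 to 171 and 104 (1.97, SE 0.29, adjusted p = 2.06e-08). All 3 were also called higher after cyclic loess. At Ndufaf6 the untreated WT library with the ATAC2 prefix was the lowest of its group (25.4 against 41.2 and 41.2), whereas it was the highest at Cox10 (77.4 against 26.2 and 35.2) and at Sdhd (140.4 against 81.2 and 71.3). With prefix as a term the Ndufaf6 rise was 3.48, the Sdhd rise 1.096 (adjusted p = 0.0433) and the Cox10 rise 0.76 and not called.

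In WT cells, acetate went with few changes: 1 site was called higher and 4 lower, in a background of 2.91% and 3.02%. Groups did not overlap at 9 sites that were higher and 14 that were lower, against 16.1% and 15.3% of all sites. The median was -0.11 for the family and -0.03 for all sites. The rise was the distal Cox10 site, at 120.0 and 84.2 with acetate (log2 1.25, SE 0.35, adjusted p = 0.0146), where the ATAC2 untreated library read 77.4; with ATAC2 libraries alone the difference was 0.37 and not called.

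The falls in WT were at an internal Cox10 site (chr11:63984935-63985135), from 109, 77.4 and 63.0 to 21.5 and 37.9 (log2 -1.47, SE 0.33, adjusted p = 0.0014), and at an internal site of Atp5d, the delta subunit of ATP synthase (chr10:80143489-80143689), from 112, 101 and 68.5 to 27.7 and 49.1 (-1.30, SE 0.32, adjusted p = 0.00463). Ndufs3, a core subunit of complex I, had a gene-end site (chr2:90903559-90903759, also within 1 kb of Kbtbd4) that went from 89.9, 64.3 and 64.1 to 30.8 and 35.8 (-1.09, SE 0.33, adjusted p = 0.027). The fourth was inside the assembly factor gene Ndufaf2 (chr13:108057051-108057251), from 199, 161 and 168 to 95.4 and 107 (-0.79, SE 0.26, adjusted p = 0.0463); it was named after its values were seen. Cyclic loess called 2 sites higher and 5 lower (background 4.43% and 4.07%), equal total signal 3 and 4 (3.82% and 2.95%) and median-of-ratios factors 2 and 5 (4.1% and 3.48%). All 4 falls were also called after cyclic loess, and none was with prefix as a term, with ATAC2 libraries alone or without WT acetate 1, whose values at the first 3 sites rest on 7, 9 and 10 reads.

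The interaction asked whether the acetate difference was larger in one genotype. It was called positive at 23 of 148 sites (18 genes) and negative at 0, in a background of 19.5% and 3.61%, with a median of 0.66 beside 0.67 for all sites. A positive value means that acetate went with a larger rise, or a smaller fall, in KO. The largest were the Ndufaf6 distal site at 2.18 (SE 0.57, adjusted p = 0.0106), the internal Cox10 site at 1.68 (SE 0.46, adjusted p = 0.0139) and the distal Sdhd site at 1.50 (SE 0.42, adjusted p = 0.0147). At Ndufaf6 and Sdhd the value came with a rise in KO, and at Cox10 with the fall in WT beside 45.2 and 51.3 in KO with acetate, against 42.8, 41.1 and 40.2 in KO untreated. No respiratory chain site was called after cyclic loess (background 0.139% positive and 7.36% negative), equal total signal (0.255% and 5.69%) or median-of-ratios factors (0.199% and 6.56%). Leaving out single libraries gave between 0 (without KO acetate 1) and 63 (without WT untreated 2), with no count over all sites beside them. With prefix as a term, which rests on WT untreated 4, the Ndufaf6, internal Cox10 and distal Sdhd sites kept their positive calls. A prefix effect confined to KO cannot be told apart from the interaction, because prefix and acetate change together in KO.

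Other genes of the pathway, from a list of 58 that holds electron carriers, further assembly factors and regulators of transcription, were represented by 102 sites at 49 genes. In untreated cells 101 were lower in KO and 1 was higher on the deposited scale, beside 89.6% and 9.07% of all sites. With acetate in KO 49 were higher (48.0%) and 1 was lower (0.980%), beside 54.6% and 5.94%. These counts turned with the scaling: median-of-ratios factors gave 3 lower and 1 higher in untreated KO, and 5 higher and 17 lower with acetate in KO. Equal total signal gave 3 and 1 in untreated KO, and 8 and 16 with acetate. Cyclic loess gave 0 and 1, and 7 and 16. Of all sites, median-of-ratios factors called 3.34% lower and 9.63% higher in untreated KO, and 13.3% higher and 15.9% lower with acetate. In the same order the shares were 5%, 9.42%, 16.3% and 13.2% with equal total signal. With cyclic loess they were 2.41%, 9.35%, 11.5% and 16.7%. The regulators had 39 sites at 14 of 17 genes, and all 39 were called lower in untreated KO on the deposited scale, against 2 with median-of-ratios factors or equal total signal and 0 with cyclic loess. With median-of-ratios factors 17 of the 39 lay above 0. The values that follow are on the deposited scale. The gene-end site of Nrf1 read 336, 340.0 and 397 in KO against 559, 377 and 701 in WT (log2 -0.57, SE 0.20), and that of Gabpa 569, 690.3 and 713 against 1051, 851 and 1233 (-0.66, SE 0.17). The Gabpa site also lies inside the Atp5j gene body and on an Atp5j promoter window. The stronger gene-end site of Tfam, which packages mitochondrial DNA and helps to start its transcription, read 286, 313 and 375 against 623, 464 and 807 (-0.93, SE 0.20). The single rise was inside Aifm1 on the X chromosome (chrX:48494468-48494668), which was also the single fall with acetate in KO, from 46.1, 44.8 and 67.4 to 21.3 and 24.1; Aifm1 was named after its values were seen.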

How the data were processed

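ATAC-seq signal was taken from the authors' deposited table of 39657 sites in 10 libraries. Per the file's values, each deposited signal is a whole number of reads times 1 factor per library (all values whole within 0.001 reads), and no source used here states how the factor was made. The submitters' processing notes name the build GRCm38, BWA 0.7.16a, DiffBind 3.6.1, Genrich, deepTools 3.5.1, Picard 2.10.9, DESeq, DESeq2 and FastQC 0.11.5. Differences were fitted with limma 3.58.1 in R 4.3.3 (trend, robust) on log2(signal + 1), with 4 group means over all 10 libraries and Benjamini-Hochberg adjustment over all 39657 sites, so low sites' folds are understated. The fit was tested on simulated data. Alternatives were 3 other scalings, a pseudocount of 8, the lowest 20% of sites left out, a distance of 10 kb, the column prefix, a replicate block and single libraries left out.

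Named sites were the strongest gene-end site of a core subunit of complexes III, IV and V (those set for complexes I and II, Ndufs1 and Sdha, had none), the 8 largest falls and rises in untreated cells and the 3 largest in each other comparison among called sites, 1 per gene, and every isoform known from particular tissues. Except for the interaction, these falls and rises were taken only where the groups did not overlap, so separation at them was a condition of naming. The strongest promoter site at a subunit gene of each complex and a few sites marked in the text were added after values were seen. The members and lists were chosen with earlier results of these data known. Promoter windows were matched by symbol, for 85 of 105 genes.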

Additional observations from a re-analysis of the deposited data

Results flagged for a closer look

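The genotype by acetate interaction, a test of whether the acetate difference in KO differed from that in WT, was positive at 23 respiratory chain sites and negative at 0 (limma, adjusted p below 0.05), in a background of 19.5% and 3.61% of all sites. The largest values were 2.18 at the distal Ndufaf6 site, 1.68 at the internal Cox10 site and 1.50 at the distal Sdhd site, on the log2 scale. No respiratory chain site was called after cyclic loess, equal total signal or median-of-ratios factors.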

How the results depend on the processing

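With cyclic loess, equal total signal and median-of-ratios factors, sites higher in untreated KO numbered 1, 2 and 2 and lower ones 2, 4 and 3. Acetate in KO gave 8, 13 and 9 higher and 14, 9 and 12 lower, acetate in WT 2, 3 and 2 higher, and the interaction 0, 0 and 0. The median of all sites in untreated cells was 0.00, -0.11 and -0.04 under them.

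Leaving out low signal gave 0 higher in untreated KO and 0 and 0 with acetate in WT. With prefix as a term acetate gave 27 higher in KO and 2 higher and 0 lower in WT. With ATAC2 libraries only WT gave 4 higher and 0 lower, with a pseudocount of 8 it gave 2 higher, and within 10 kb 0 higher. Leaving out single libraries gave 1 to 1 higher and 128 to 146 lower in untreated KO, 0 to 0 between genotypes with acetate, 29 to 77 higher and 0 to 0 lower with acetate in KO, 0 to 2 higher and 0 to 7 lower with acetate in WT, and 0 to 63 higher and 0 to 0 lower in the interaction. Lone libraries were assumed to vary like the other groups. The cause of these moves was not tested, and calls over all sites were not counted under these settings.

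Signs reversed under the 3 scalings, in the same order. In untreated cells these were Uqcrc1 at 0.10, 0.12 and 0.19, Atp5b at 0.19, 0.30 and 0.37, Ndufv1 at 0.13, 0.22 and 0.29, Cox8a at 0.14, 0.25 and 0.32, the internal Ndufa4l2 site at 0.17, 0.19 and 0.26, Cox6b2 at 0.31, 0.22 and 0.29, the Cox7a1 promoter at 0.26, 0.28 and 0.35, the distal Cox7a1 site at 0.17, 0.056 and 0.13, and the Cox10 site not called at 0.43, 0.31 and 0.38. The Ndufa4l2 gene-end site reversed with cyclic loess (0.024) and Sdhb with median-of-ratios factors (0.033). With acetate in KO these were Ndufv1 at -0.33, -0.46 and -0.54, Uqcrc1 at -0.26, -0.31 and -0.40, Cox8a at -0.38, -0.53 and -0.62, and Atp5b at -0.30, -0.46 and -0.54. Ndufv1 was -0.022 with prefix as a term, and leaving out single libraries put Cox8a between -0.11 (without KO untreated 1) and 0.087, with -0.086 without KO acetate 1. The Cox10 site not called reached -0.71 with prefix as a term.

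Whether same-numbered libraries were paired is not stated. Correlations of their deviations from the group means ran from -0.122 to 0.331. In groups of 2 libraries these deviations mirror each other, so the correlations cannot settle the question. With a replicate block 1 site was higher and 146 lower in untreated KO, 54 were higher with acetate in KO, 1 higher and 7 lower with acetate in WT, and 17 higher in the interaction. Calls over all sites were not counted there. In the same paired fit Ndufv1 was -0.0067 and Cox8a -0.034 with acetate in KO. Count tests with edgeR and DESeq2, planned for raw counts, were not run on these scaled values. Depth limits the weak sites, where single libraries held fewer than 20 reads.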
